A study of Mus musculus with 8 samples.

Results

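Glycolysis and the pentose phosphate pathway were followed through the transcripts of 37 genes, chosen as the glucose and lactate transporters, the enzymes of both pathways with regulators of phosphofructokinase, and the pyruvate dehydrogenase complex with its kinases. The table of expression values held 38 rows under these names among 55487 rows, because Aldoa was listed under a pair of gene identifiers. Of the 37 genes, 36 reached the minimum for testing, a mean of 1 TPM (a level scaled by transcript length), and Ldhb did not, being listed at 0 TPM in all 8 libraries. The cells were J774A.1, an immortalised macrophage line of mouse origin. In the control group (LPS, n = 4), cells received lipopolysaccharide, a component of the outer membrane of Gram-negative bacteria to which macrophages respond strongly, at 1 μg/mL for 24 h. In the treated group (LPS + UDCA, n = 4), cells received the same LPS together with 1 mM ursodeoxycholic acid (UDCA), a secondary bile acid. LPS was thus shared by both groups, cells without LPS were not analysed here, and the doses come from the study's methods. The labels do not say whether replicates were separate cultures. Each p-value sets the difference between the groups against the spread between these libraries, and may not extend to new cultures.

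Glycolysis splits glucose into pyruvate in the cytosol and yields ATP quickly, and pyruvate is then either reduced to lactate and exported or passed into the mitochondrion through pyruvate dehydrogenase. The pentose phosphate pathway branches off at glucose 6-phosphate. Its oxidative arm makes NADPH, which feeds glutathione reduction and the NADPH oxidase, and its non-oxidative arm trades sugar phosphates between ribose and glycolysis. Macrophages activated by LPS are known for high glucose uptake and lactate release.

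Levels were in TPM, a unit in which reads are divided by transcript length and each library is brought to a common total, so that levels can be set side by side between genes. TPM keeps no depth, and errors are SDs over the 4 libraries of a group. Differences are given as log2FC, the log2 fold change of LPS + UDCA over LPS on the log2(TPM + 1) scale, which understates changes of genes at low levels. They come from limma fitted to all 11796 genes that reached the minimum, with standard errors (SE) and p-values adjusted by Benjamini-Hochberg. The columns here did not fully share a total. They summed to 973190 to 977485 TPM under LPS and to 958918 to 962737 TPM under LPS + UDCA, so every LPS + UDCA column summed lower. All genes tested had a median log2FC of 0.082. All 8 macrophage markers examined (Adgre1, Csf1r, Itgam, Cd68, Ptprc, Lyz2, Cd14 and Spi1) averaged at least 1 TPM. They moved apart, since Adgre1 (log2FC 1.27), Ptprc (0.47) and Spi1 (0.19) rose while Itgam (-2.91), Lyz2 (-2.19), Cd68 (-1.39), Csf1r (-1.35) and Cd14 (-0.39) fell at an FDR under 0.05 (limma). Their summed level was 4204 to 4434 TPM under LPS and 1980 to 2217 TPM under LPS + UDCA, a sum in which Lyz2 alone went from 1988 ± 93.78 to 435.5 ± 19.97 TPM. The part of these differences in the results below was not tested. None of the markers of T, B, epithelial, fibroblast and endothelial cells averaged 1 TPM, and these summed to at most 1 TPM for any cell type in any library. In RNA from bulk cells, fewer cells of a kind and less RNA per cell cannot be told apart.

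The transcripts of glycolysis were mostly lower with UDCA. At a false discovery rate (FDR) under 0.05, 25 of the 36 tested members were lower and 6 were higher, and 5 did not pass (limma). Over all genes tested, 32.3% were lower and 40.2% were higher by this rule. Between the groups no libraries overlapped for 24 members that were lower and 5 that were higher, where 29.9% and 37% of all genes tested did so. At a fold change of at least 2 as well, 5 members were lower (Hk3, Hk1, Gpi1, Pfkfb3 and Ldha) and 0 were higher, against 8.44% and 8.71% of all genes tested. At an unadjusted p under 0.05 in the same limma fit, 6 members were higher, and 0 of these reached a fold change of 2. At a fold change of 1.5, 14 members were lower and 1, Taldo1, was higher, against 17.6% and 21.8% of all genes. The 36 members had a median log2FC of -0.41. Highly expressed genes were lower more often in general, since 45.6% of the 1223 genes at 100 TPM or more were lower at the FDR and 32.8% higher. Of the 20 members at that level, 15 were lower and 4 higher. Of the 16 members under 100 TPM, 10 were lower and 2 higher, where 30.7% and 41% of all genes under 100 TPM were.

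**Figure D1:**
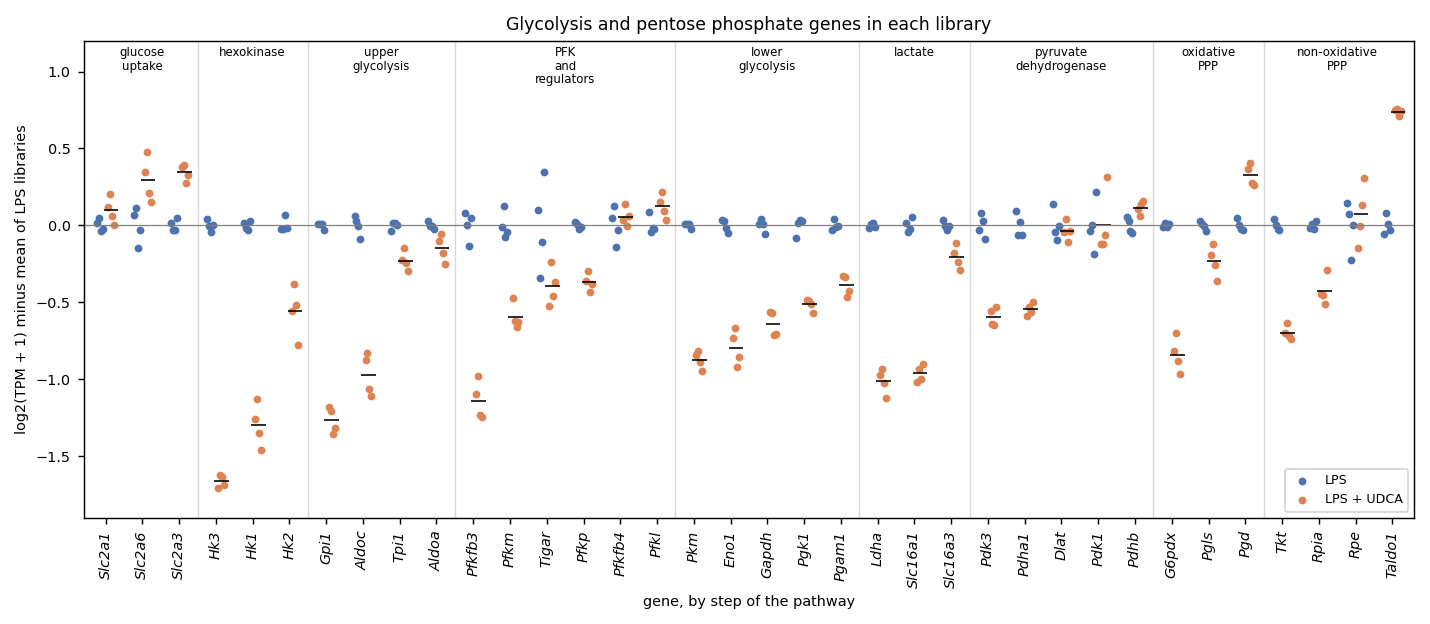
Each point is 1 library, drawn as log2(TPM + 1) minus the mean of the 4 LPS libraries of that gene, for the 36 tested members grouped by step of the pathway (PFK, phosphofructokinase; PPP, pentose phosphate pathway); black bars are the means of the LPS + UDCA libraries. The hexokinases, the enzymes of lower glycolysis and Ldha lie below the LPS libraries, while Taldo1, Pgd, Slc2a3 and Slc2a6 lie above them.

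**Figure D2:**
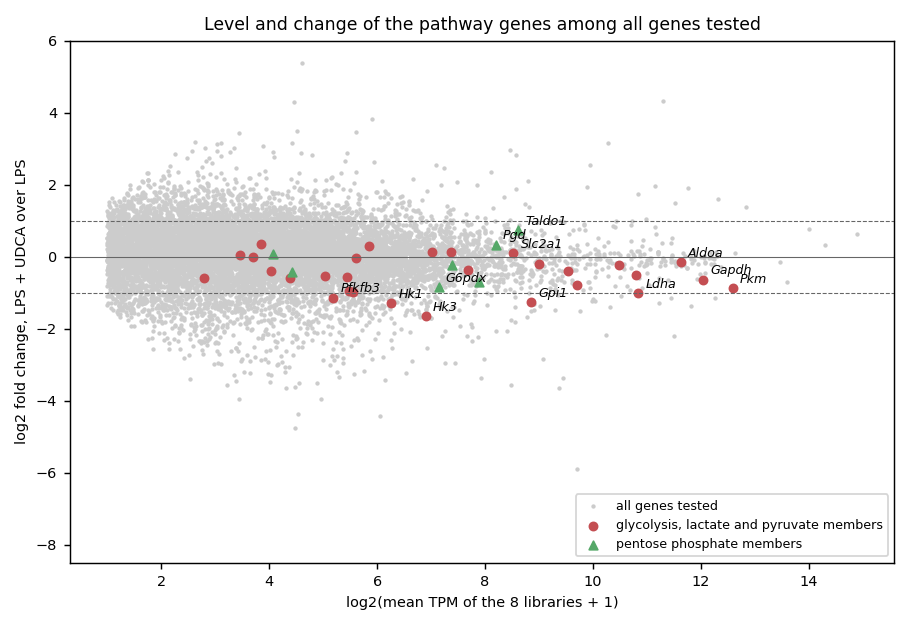
Log2 fold change (LPS + UDCA over LPS) against the log2 of the mean TPM plus 1 for the 11796 genes tested, with members of glycolysis, lactate and pyruvate steps as circles and pentose phosphate members as triangles; dashed lines mark a fold change of 2. Most members lie below 0, and Pkm, Gapdh and Aldoa are the members with the highest levels.

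Some of the members are known in other settings to respond to hypoxia-inducible factor and MYC. The promoter windows of the members were searched for the letters of the corresponding sites. RefSeq (GRCm38.p6) gave 50 promoter windows for 36 of the 37 members, each from 250 bases before to 50 bases after a transcription start. The core of the hypoxia response element, ACGTG or GCGTG on either strand, occurred in 39 of the 50 windows (78%) and in 43.8% of all 32851 windows of the same length. Some windows of a gene overlap, so 1 site can be counted in several windows. By gene, 31 of the 36 members with a window held the core. The median GC content was 61% for the members' windows and 52.7% for all. The E-box CACGTG, which contains the hypoxia core, occurred in 8% of the members' windows and in 7.15% of all. The core of the antioxidant response element, TGACNNNGC on either strand, occurred in 12% and 12.4%. Below are the 250 bases before the start for Ldha, whose window held the most hypoxia cores, for Hk3, which fell most, and for Taldo1, which rose most. Capitals mark ACGTG or GCGTG on either strand, the opposite strand reading as CACGT or CACGC.
Ldha: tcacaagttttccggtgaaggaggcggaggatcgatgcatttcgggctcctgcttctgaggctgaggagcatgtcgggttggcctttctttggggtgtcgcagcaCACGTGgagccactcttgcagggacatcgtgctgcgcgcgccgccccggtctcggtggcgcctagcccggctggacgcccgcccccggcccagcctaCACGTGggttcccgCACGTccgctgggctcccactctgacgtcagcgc
Hk3: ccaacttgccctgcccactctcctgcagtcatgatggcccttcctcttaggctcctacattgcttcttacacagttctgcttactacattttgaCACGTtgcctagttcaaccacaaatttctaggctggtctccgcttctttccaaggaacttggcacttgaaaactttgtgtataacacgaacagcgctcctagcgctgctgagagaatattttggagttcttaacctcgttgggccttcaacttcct
Taldo1: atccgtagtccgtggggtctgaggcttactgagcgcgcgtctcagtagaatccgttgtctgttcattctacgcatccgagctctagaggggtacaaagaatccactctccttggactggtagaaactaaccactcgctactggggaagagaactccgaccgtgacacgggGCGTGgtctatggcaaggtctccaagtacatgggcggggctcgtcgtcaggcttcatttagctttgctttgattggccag
The Ldha stretch (chr7:46845554-46845803, plus strand) held the core 5 times over both strands, and 4 of these lay in the pair of E-boxes, read on each strand. The Hk3 stretch (chr13:55021386-55021635, minus strand) and the Taldo1 stretch (chr7:141391910-141392159, plus strand) each held it 1 time. The core was present in at least 1 window of 22 of the 25 members that were lower and of 5 of the 5 higher members with a window. No share by gene was computed over all genes, so these counts have no background. A match of letters does not show that a factor binds there.

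Of the 3 glucose transporter genes, 2 rose and 0 fell (limma, and 0 at an unadjusted p under 0.05), where 40.2% of all genes tested were higher, so that the count by itself says little about these genes. Slc2a3, which encodes the high-affinity glucose transporter GLUT3, was at 11.86, 11.44, 11.45 and 12.12 TPM in LPS replicates 1 to 4, and at 15.57, 15.72, 14.37 and 14.97 TPM under LPS + UDCA, in the same order. Every LPS + UDCA library was above every LPS library, with a log2FC of 0.34 (SE 0.053, adjusted p = 0.00029). Slc2a6, which encodes the lysosomal transporter GLUT6, rose from 50.6 ± 4.05 to 62.4 ± 6.45 TPM (log2FC 0.30, adjusted p = 0.0093). Slc2a1, which encodes the main glucose transporter GLUT1, made up 85.1% of the TPM of the 3 transporters with LPS and 83.1% with LPS + UDCA. Its level was 354 ± 9.59 TPM under LPS and 379.8 ± 23.1 TPM under LPS + UDCA, and the groups overlapped (log2FC 0.098, 95% interval -0.0046 to 0.20, adjusted p = 0.078). The value depended on the scaling, with a log2FC of 0.019 (adjusted p = 0.72) under median-of-ratios scaling and 0.19 (adjusted p = 0.0029) under quantile normalization. It was 0.13 (adjusted p = 0.023) without LPS + UDCA replicate 4 and 0.062 (adjusted p = 0.18) without LPS + UDCA replicate 2.

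The hexokinases, which trap glucose in the cell as glucose 6-phosphate, fell together and changed their proportions. Hk3, on chromosome 13 from 55005985 to 55021385 of GRCm38, was at 185.42, 179.49, 174.73 and 180.24 TPM in the LPS libraries and at 54.54, 57.76, 57.16 and 55.32 TPM in the LPS + UDCA libraries. This was the largest change of any member, with narrow groups far apart (log2FC -1.66, SE 0.035, adjusted p = 1.5e-09). Hk1, on chromosome 10 from 62268855 to 62379908, was at 109.61, 106.85, 106.08 and 110.2 TPM under LPS and at 44.6, 48.95, 41.95 and 38.7 TPM under LPS + UDCA (log2FC -1.30, SE 0.066, adjusted p = 2.2e-07). Hk2, on chromosome 6 from 82725025 to 82774454, encodes the isoform that is classically induced in activated macrophages, and it fell least. It was at 49.91, 49.9, 53.26 and 50.25 TPM under LPS and at 34.25, 38.87, 35.16 and 29.24 TPM under LPS + UDCA (log2FC -0.56, SE 0.078, adjusted p = 0.00015).
The summed TPM of the 3 hexokinases was 334.1 to 344.9 with LPS and 123.3 to 145.6 with LPS + UDCA, a ratio of means of 0.396. Hk3 held 52.3% to 53.8% of that sum in the LPS libraries and 39.7% to 44.9% in the LPS + UDCA libraries, and the share of Hk2 was 14.5% to 15.9% against 23.7% to 26.7%. The share of Hk1 overlapped, at 31.8% to 32.4% and 31.2% to 33.6%. The antisense gene Hk1os overlaps Hk1 and averaged 0.815 TPM under LPS and 3.64 TPM under LPS + UDCA. Whether the counting used strand is not given in the sources used here.

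**Figure D3:**
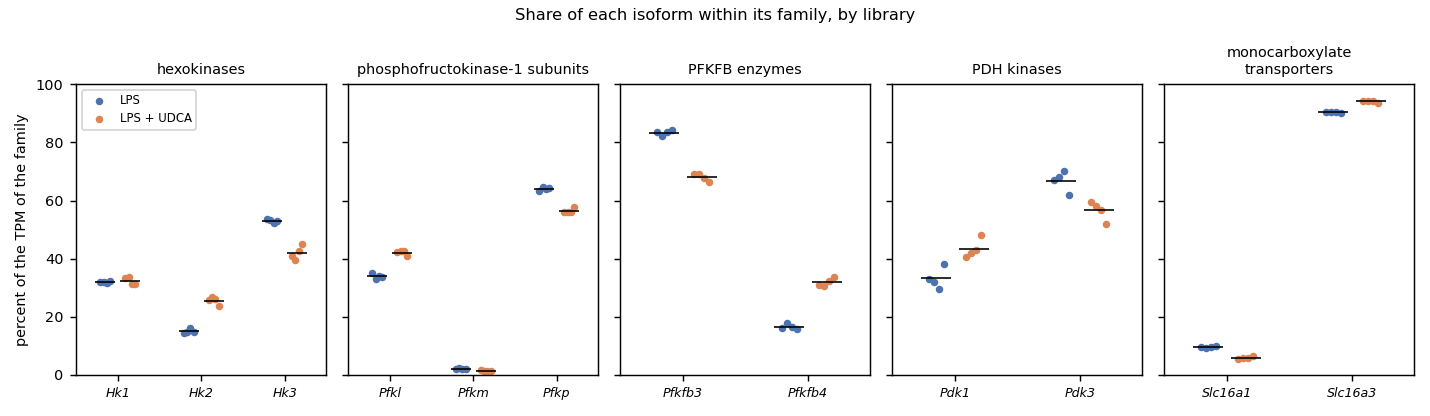
Percent of the TPM of each family held by each isoform in each library (points; bars are group means of 4 libraries) for the hexokinases, the phosphofructokinase-1 subunits, the PFKFB enzymes, the pyruvate dehydrogenase (PDH) kinases and the monocarboxylate transporters. The share of Hk3 and of Pfkfb3 is lower, and that of Hk2, Pfkl and Pfkfb4 higher, in every LPS + UDCA library than in any LPS library.

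In upper glycolysis, all 4 members outside the phosphofructokinase step were lower, by very different amounts. Of all genes tested, 32.3% were lower at the FDR. Gpi1, on chromosome 7 from 34201330 to 34230336, encodes the isomerase that turns glucose 6-phosphate into fructose 6-phosphate. It was at 652.87, 655.39, 654.52 and 637.8 TPM under LPS and at 286.67, 281, 254.05 and 260.49 TPM under LPS + UDCA. The groups were far apart (log2FC -1.26, SE 0.042, adjusted p = 1.8e-08). Aldoc, the minor aldolase, was at 63.77, 62.45, 61.02 and 57.45 TPM under LPS and at 32.91, 33.92, 28.69 and 27.88 TPM under LPS + UDCA. Its log2FC of -0.97 (adjusted p = 2.0e-06) lay just inside a fold change of 2, and it was -1.001 without LPS + UDCA replicate 1 and -1.015 without LPS + UDCA replicate 2. Aldoa, the main aldolase with 98.1% to 99.0% of the TPM of the pair in every library, fell by 9.53%, from 3310 ± 54.2 to 2995 ± 181 TPM (log2FC -0.15, adjusted p = 0.011, and -0.033 with adjusted p = 0.58 after quantile normalization, -0.23 with adjusted p = 0.0017 after median-of-ratios scaling). The other row named Aldoa, an adjacent gene record on the same strand, was at 0.99 to 3.14 TPM under LPS and 2.4 to 3.2 TPM under LPS + UDCA (log2FC 0.28, adjusted p = 0.30). Tpi1, which interconverts the triose phosphates, fell from 1544 ± 26.6 to 1318 ± 57.5 TPM (log2FC -0.23, adjusted p = 0.00024, and -0.12 with adjusted p = 0.017 after quantile normalization).

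Phosphofructokinase-1 commits sugar to glycolysis, and fructose 2,6-bisphosphate, made and removed by the PFKFB enzymes, activates it. Of these 6 members, 4 fell and 1 rose at the FDR, where 32.3% of all genes tested were lower and 40.2% higher. With so few members the count is a description only. Pfkfb3, on chromosome 2 from 11471433 to 11554077, encodes the PFKFB enzyme with the strongest kinase activity. It was at 51.74, 49.11, 44.46 and 50.7 TPM under LPS and at 22.39, 24.34, 20.25 and 20.03 TPM under LPS + UDCA (log2FC -1.14, SE 0.074, adjusted p = 1.0e-06). Pfkfb4 overlapped between the groups, at 9.73 ± 0.834 and 10.2 ± 0.467 TPM (log2FC 0.057, 95% interval -0.11 to 0.22, adjusted p = 0.49). Pfkfb3 held 82.1% to 84.3% of the TPM of the pair with LPS and 66.3% to 69.3% with LPS + UDCA.
The subunits of the enzyme itself moved in different directions. Pfkp, the main subunit by level, fell from 231 ± 3.29 to 179 ± 6.83 TPM (log2FC -0.37, adjusted p = 1.1e-05), and Pfkm, at 7.34 ± 0.523 TPM with LPS, fell to 4.52 ± 0.334 TPM (log2FC -0.59). Pfkl, the liver-type subunit, was at 118.57 to 129.65 TPM under LPS and at 125.46 to 141.93 TPM under LPS + UDCA (log2FC 0.12, adjusted p = 0.039). That call was narrow, since the groups overlapped and the adjusted p was 0.051 to 0.097 without any 1 of LPS replicates 2, 3 and 4 and LPS + UDCA replicates 1, 2 and 3. With median-of-ratios scaling the log2FC of Pfkl was 0.046 (adjusted p = 0.35), and with quantile normalization 0.21 (adjusted p = 0.0024). Tigar, a phosphatase that lowers fructose 2,6-bisphosphate, was at 13.61 to 22.52 TPM under LPS and 11.88 to 14.71 TPM under LPS + UDCA, with overlap (log2FC -0.40, adjusted p = 0.026). Its adjusted p was 0.057 to 0.072 without LPS replicate 1 or 4 or LPS + UDCA replicate 1 or 3.

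All 5 members of lower glycolysis fell, and the groups overlapped in none of them. Of all genes tested, 32.3% were lower at the FDR and 29.9% were lower without overlap. Pkm, on chromosome 9 from 59656368 to 59679375, encodes pyruvate kinase M and had the highest TPM of the rows named for members. It was at 7998.49, 7986.72, 7980.73 and 7800.34 TPM under LPS and at 4422.7, 4508.81, 4298.81 and 4117.58 TPM under LPS + UDCA (log2FC -0.87, SE 0.031, adjusted p = 2.8e-08). The table gives genes and not splice forms, so the M1 and M2 forms of the enzyme could not be separated. Gapdh, which makes NADH and is often used as a reference gene, was at 5137.85, 5244.07, 5133.1 and 4910.2 TPM under LPS and at 3456.63, 3433.46, 3110 and 3134.08 TPM under LPS + UDCA. It fell by 35.7% in mean TPM (log2FC -0.64, SE 0.042, adjusted p = 1.1e-06). Eno1, enolase 1, fell from 1053 ± 29.3 to 608 ± 48.9 TPM (log2FC -0.79), Pgk1, the first ATP-forming kinase, from 2076 ± 75.6 to 1454 ± 39.1 TPM (-0.51) and Pgam1, phosphoglycerate mutase, from 841 ± 17.1 to 642.5 ± 29.2 TPM (-0.39, and -0.22 after quantile normalization).

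Reads of these enzymes can be divided among near-identical copies elsewhere in the genome. In GENCODE M21, 43 other gene records shared at least 50% of their 31-base words with Gapdh, and together they averaged 8174 TPM under LPS and 5367 TPM under LPS + UDCA, more than Gapdh itself. Of these records, 16 were tested, 13 were lower at the FDR and 0 were higher (limma, and 0 at an unadjusted p under 0.05). Over all genes tested, 32.3% were lower and 40.2% higher. The records were picked for sharing sequence with Gapdh and can hold its reads, so these are not 13 separate falls. Gm13394, at 4577 to 4908 TPM under LPS and 2791 to 3217 TPM under LPS + UDCA, held most of that TPM. For Eno1 the copies Eno1b and Gm4735 averaged 2012 and 1733 TPM under LPS and 1153 and 978.5 TPM under LPS + UDCA, each above Eno1. Summed with its copies, Gapdh fell from 13280 ± 353 to 8650 ± 499 TPM and Eno1 from 4798 ± 57.5 to 2740 ± 217 TPM, with log2FC values of -0.62 and -0.81. The levels of Gapdh and Eno1 are therefore uncertain, while the sums moved by about as much as the genes did. For Pgam1 the copy Pgam1-ps2 ranged from 0 to 101.62 TPM without separating the groups, and the sum fell by 20.5%.

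**Figure D4:**
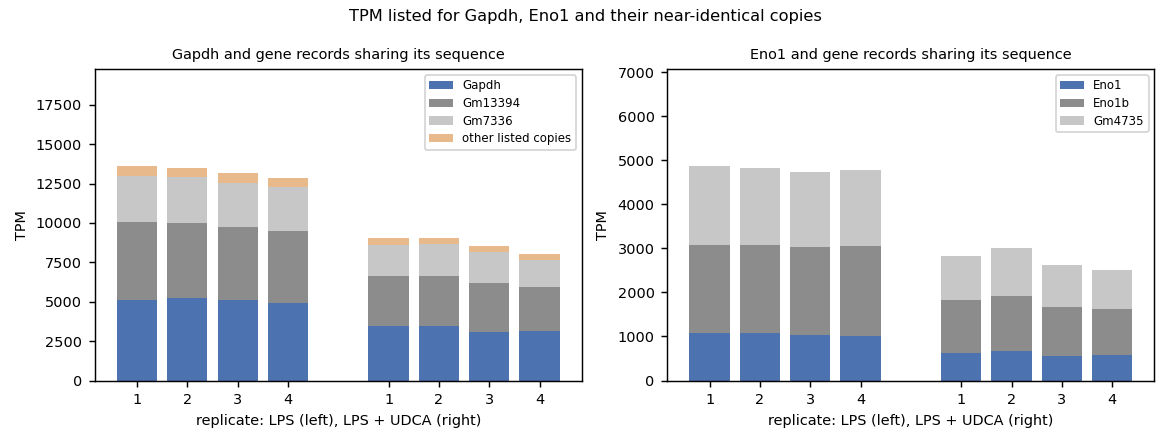
TPM listed for Gapdh (left) and Eno1 (right) and for gene records that share at least 50% of their 31-base words with them, stacked by library, with LPS replicates at the left and LPS + UDCA replicates at the right of each panel. Most of the summed TPM lies outside the rows named Gapdh and Eno1, and every part shown is lower in the LPS + UDCA libraries.

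All 3 tested genes of lactate formation and transport fell, where 32.3% of all genes tested were lower at the FDR. Ldha, on chromosome 7 from 46841475 to 46855627, encodes the lactate dehydrogenase subunit that favours lactate formation. It was at 2412.17, 2457.86, 2461.72 and 2427.56 TPM under LPS and at 1245.97, 1278.86, 1197.89 and 1120.37 TPM under LPS + UDCA. The log2FC was -1.01 (SE 0.040, adjusted p = 5.2e-08), just past a fold change of 2, and it was -0.98 without LPS + UDCA replicate 4 and -0.97 with quantile normalization. Its partner Ldhb, the subunit that favours pyruvate, was listed at 0 in every library, and 33% of its 31-base words occur in another gene record, which averaged 0 TPM under LPS and 0.020 TPM under LPS + UDCA.
Slc16a1 encodes MCT1, a proton-coupled lactate carrier. It was at 58.82, 56.35, 57.21 and 60.34 TPM under LPS and at 28.27, 30.05, 28.69 and 30.68 TPM under LPS + UDCA (log2FC -0.96, adjusted p = 1.3e-07), and with median-of-ratios scaling it passed a fold change of 2 (log2FC -1.04). Slc16a3, which encodes the export carrier MCT4 and held at least 90.03% of the TPM of the pair in every library, fell from 546 ± 9.87 to 474 ± 24.6 TPM (log2FC -0.21, adjusted p = 0.0011). After quantile normalization the log2FC of Slc16a3 was -0.035 (adjusted p = 0.50). Bsg, which encodes basigin, the chaperone both carriers need at the cell surface, fell from 639 ± 7.84 to 393 ± 21.1 TPM (log2FC -0.70, adjusted p = 3.9e-07) and was named after its values were seen.

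Of the 5 tested pyruvate dehydrogenase genes, 2 fell, 1 rose and 2 did not pass. At the FDR, 32.3% of all genes tested were lower and 40.2% higher, so these counts by themselves say little about this step. Pdha1, the E1 alpha subunit, fell from 37.6 ± 2.02 to 25.5 ± 0.716 TPM (log2FC -0.54, adjusted p = 9.6e-06), and the inhibitory kinase gene Pdk3 fell from 24.2 ± 1.28 to 15.7 ± 0.672 TPM (log2FC -0.59, adjusted p = 1.1e-05). Pdhb, the E1 beta subunit, was at 152.69 to 164.84 TPM under LPS and 165.35 to 176.87 TPM under LPS + UDCA (log2FC 0.12, adjusted p = 0.020). Its adjusted p was 0.053 without LPS replicate 3, 0.057 without LPS replicate 4 and 0.40 with median-of-ratios scaling (log2FC 0.038), and after quantile normalization the log2FC was 0.19 (adjusted p = 0.0016). Dlat, the E2 subunit, was at 48.7 ± 3.54 and 47.4 ± 2.04 TPM (log2FC -0.036, 95% interval -0.17 to 0.096), and the kinase gene Pdk1 at 10.43 to 14.07 and 10.91 to 15.15 TPM (log2FC 0.0022, 95% interval -0.27 to 0.27). Neither passed the FDR. Pdk1 held 29.7% to 38.3% of the TPM of both kinases with LPS and 40.4% to 48.0% with LPS + UDCA.

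In the pentose phosphate pathway, neighbouring enzymes moved in opposite directions. G6pdx, on chromosome X from 74409483 to 74429194, encodes the dehydrogenase that opens the oxidative arm and sets its rate. It was at 178.37, 181.45, 178.38 and 181.05 TPM under LPS and at 101.61, 110.23, 97.1 and 91.4 TPM under LPS + UDCA (log2FC -0.84, SE 0.054, adjusted p = 9.0e-07). The gene Ikbkg overlaps it on the opposite strand and averaged 27.7 TPM under LPS and 98.8 TPM under LPS + UDCA, and 23.6% of the 31-base words of G6pdx occur in other genes. Pgls, the lactonase of the next step, fell from 179.6 ± 3.49 to 153 ± 10.7 TPM (log2FC -0.23, adjusted p = 0.0024). Pgd, on chromosome 4 from 149149991 to 149166771, encodes the other NADPH-forming dehydrogenase of the arm, and it rose. It was at 267.45, 258.47, 254.78 and 253.22 TPM under LPS and at 334.01, 341.97, 312.75 and 310.1 TPM under LPS + UDCA (log2FC 0.33, SE 0.040, adjusted p = 6.2e-05).

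The non-oxidative arm showed the same division. Taldo1, on chromosome 7 from 141392199 to 141402968, encodes transaldolase, which moves a 3-carbon unit between sugar phosphates. It was at 280.69, 308.45, 293.92 and 286.44 TPM under LPS and at 492.73, 493.68, 478.35 and 489.05 TPM under LPS + UDCA. This was the largest rise of any member, 67.1% in mean TPM (log2FC 0.74, SE 0.034, adjusted p = 1.4e-07). Tkt, on chromosome 14 from 30548359 to 30574720, encodes transketolase, which acts beside it in the same arm. It was at 298.4, 291.01, 285.89 and 284.63 TPM under LPS and at 178.58, 186.26, 175.96 and 173.44 TPM under LPS + UDCA (log2FC -0.70, SE 0.033, adjusted p = 1.6e-07). The ranges of the pair overlapped in the LPS libraries, whereas in every LPS + UDCA library Taldo1 was far above Tkt. Rpia, the isomerase that forms ribose 5-phosphate, fell from 23.5 ± 0.411 to 17.3 ± 1.22 TPM (log2FC -0.42, adjusted p = 0.00012). Rpe, the epimerase, overlapped between the groups at 15.4 ± 1.74 and 16.3 ± 2.34 TPM (log2FC 0.072, 95% interval -0.18 to 0.32, adjusted p = 0.57).

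**Figure D5:**
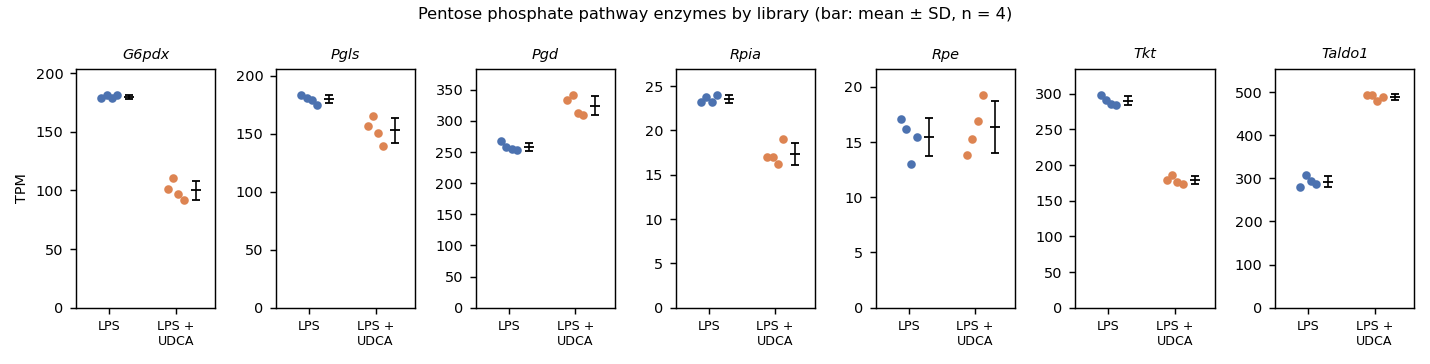
TPM of the 7 pentose phosphate pathway members in each library (points), with the mean ± SD of 4 libraries beside them; each axis starts at 0 and has its own scale. Pgd and Taldo1 are higher in every LPS + UDCA library, G6pdx, Pgls, Rpia and Tkt are lower, and Rpe overlaps.

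Pentose phosphate genes are known targets of NRF2, the regulator of antioxidant genes, and other NRF2 targets are given beside them as values. Hmox1, heme oxygenase 1, rose by 203% from 2526 ± 33.9 to 7653 ± 134 TPM. Srxn1, sulfiredoxin, rose from 44.8 ± 1.35 to 254 ± 14.8 TPM (log2FC 2.48). Gclm and Gclc, the subunits of the enzyme that limits glutathione synthesis, had log2FC values of 1.99 and 1.26, and Txnrd1, thioredoxin reductase 1, had 0.56. Slc7a11, the cystine importer, was at 53.9 ± 3.29 and 55.3 ± 0.218 TPM (log2FC 0.040, adjusted p = 0.48), and Nqo1 averaged under 1 TPM and was not tested. Of the pentose phosphate members, only Pgd and Taldo1 rose with these genes, and the part of NRF2 in these differences was not tested.

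Related genes outside the 37 were divided into 5 lists, with 83 genes of which 53 were tested. Past the FDR, 20 were higher and 19 lower, against 40.2% and 32.3% of all genes tested, and past a fold change of 2 as well, 5 were higher and 5 lower, against 8.71% and 8.44%. These counts were near those over all genes, and with lists this small the counts within each list are descriptions only. Their median log2FC was 0.045, against -0.41 for the members. The lists differed, from -0.35 for the branches from the hexose and triose phosphates to 0.30 for the partners of pyruvate entry and pyruvate dehydrogenase. Among 10 tested isoforms of the members, 3 rose and 3 fell. Eno2, the neuronal enolase, was at 38.06, 38.41, 37.06 and 42.67 TPM under LPS and at 84.72, 85.5, 80.77 and 81.43 TPM under LPS + UDCA (log2FC 1.07, adjusted p = 1.5e-07). It thus rose while the far more abundant Eno1 fell. Among the 8 partners of pyruvate entry and pyruvate dehydrogenase, 4 rose and 0 fell (limma, and 0 at an unadjusted p under 0.05), where 40.2% of all genes tested rose. Of the 12 tested genes of gluconeogenesis and glycogen, 6 rose and 3 fell, and Gbe1, the glycogen branching enzyme, rose from 4.24 ± 0.965 to 16.3 ± 1.70 TPM (log2FC 1.74, adjusted p = 2.8e-06).
Of the 13 tested genes of branches from the hexose and triose phosphates, 9 fell and 2 rose, and past a fold change of 2, 4 were lower and 0 higher. The fall was thus not particular to the members. Gpd2 and Gpd1l, glycerol 3-phosphate dehydrogenase genes, had the lowest log2FC values of that list, -1.31 and -1.28. Gpd2, the mitochondrial enzyme, was at 8.1 to 9.95 TPM under LPS and 2.86 to 3.1 TPM under LPS + UDCA.
Among the 10 tested regulators and partners, 5 rose and 4 fell. Myc, a transcription factor known to activate glycolytic genes, was at 69.76, 70.82, 66.46 and 70.6 TPM under LPS and at 27.52, 29.95, 28.02 and 27 TPM under LPS + UDCA (log2FC -1.27, adjusted p = 2.9e-08). Transcripts of hypoxia-inducible factor moved the other way. Arnt, its constitutive subunit, was at 23.9 to 25.43 TPM under LPS and 52 to 55.13 TPM under LPS + UDCA (log2FC 1.08, adjusted p = 5.2e-08). Hif1a, the oxygen-regulated subunit, which was named after its values were seen, was at 16.08 to 21.42 and 34.78 to 44.04 TPM (log2FC 1.06, adjusted p = 9.9e-06). HIF-1α is controlled mainly as a protein, which these data do not measure. The part of MYC and of hypoxia-inducible factor in the differences of the members was not tested. Arrdc4, a relative of the glucose uptake inhibitor Txnip, rose from 1.98 ± 0.363 to 7.04 ± 0.855 TPM (log2FC 1.43, adjusted p = 4.5e-06).

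The 37 members together held 2.86% to 2.93% of the TPM of each LPS library and 1.90% to 2.09% of that of each LPS + UDCA library, a description without a test. Most of that sum is Pkm, Gapdh, Aldoa, Ldha and Pgk1, so it follows their levels. The near-identical copies of Gapdh and Eno1, at 8174 and 3745 TPM under LPS, are not in it. Summed with its copies, Gapdh at 13280 TPM under LPS would exceed Pkm, so this order depends on how reads were divided.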

How the data were processed

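RNA of 8 J774A.1 libraries (Illumina TruSeq kit, HiSeq instrument) was processed by the authors on the cloud platform of the sequencing company. They deposited TPM per gene to 2 decimals, 1 column per library; the unit was inferred from the column sums (958918 to 977485). The submitters' processing notes name Bowtie 0.12.2 and GRCm38 (mm10), and the counting program is not given in the sources used here. Depth is unknown, so no counting error was computed. Genes averaging 1 TPM or more were taken to log2(TPM + 1) and fitted on group alone in limma 3.58.1 (R 4.3.3; lmFit, then eBayes with trend), and p-values were adjusted by Benjamini-Hochberg over all 11796 genes. Calls used a fold change of 2 and an FDR of 0.05, the study's thresholds. The fit was tested on simulated data. Of 100 genes given a log2 change of 0.5, 63 passed the FDR, and 89 of 100 did so at a log2 change of 1. Of 11596 genes left unchanged, 8 passed. Few genes were changed in the simulation, whereas 4741 were higher and 3807 lower at the FDR in the data. The FDR thus cut at a different unadjusted p, and these rates do not carry over to the real fit. A member that did not pass can still have changed.

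All 37 members were named, with the 2 highest and 2 lowest genes past both thresholds in each related list. Members and lists were chosen with earlier results of these data known, so counts are descriptions. Groups and replicate numbers follow the sample titles, and 0 of 28 pairs of libraries were identical. Positions, overlaps and 31-base words come from GENCODE M21 (GRCm38), and motifs were searched in RefSeq promoters. Alternatives covered scaling, low-value filters, pseudocount, variance trend, the replicate block, the fold minimum, copies summed with their gene and each library left out.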

Additional observations from a re-analysis of the deposited data

Results flagged for a closer look

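A library was marked where its distance to the nearest other library of its group, as a share of the whole spread, exceeded Dixon's 95% critical value for 4 samples. This held in 4 of 72 groups (36 members, 2 groups each), where chance gives 3.6. For Hk2, LPS replicate 3 was highest at 53.26 TPM, against 49.9 to 50.25 TPM in the others. For Gpi1 and Pkm, LPS replicate 4 was lowest, at 637.8 TPM against 652.87 to 655.39 TPM and at 7800.34 TPM against 7980.73 to 7998.49 TPM. For Pdk1, LPS + UDCA replicate 4 was highest at 15.15 TPM, against 10.91 to 11.41 TPM. The first 3 gaps were small beside the distance between the groups, and the Pdk1 groups overlapped with or without that library.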

How the results depend on the processing

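Over 16 alternatives, the 36 members gave 576 log2 fold changes, of which 540 kept their direction and their side of the FDR, 21 lost the call, 4 gained it and 11 changed sign. All 11 belong to members that did not pass the FDR. With median-of-ratios scaling and quantile normalization, Pfkfb4 was at -0.014 and -0.030 and Pdk1 at -0.071 and -0.083. Rpe was at -0.0018 with median-of-ratios scaling. With 1 library left out, Pdk1 ran from -0.10 to 0.074, Dlat from -0.067 to 0.011 and Rpe from -0.0063 to 0.15. The lower calls past a fold change of 2 numbered 4 to 6 with 1 library left out, 7 with median-of-ratios scaling and 4 with quantile normalization, and the higher calls 0 (limma). Ldha was lost without LPS + UDCA replicate 4 and with quantile normalization. Aldoc was gained without LPS + UDCA replicate 1 or 2 and with median-of-ratios scaling, as was Slc16a1 with that scaling (-1.04). Quantile normalization also moved called values by over 1.5 times for Tpi1 (-0.12), Pgam1 (-0.22), Pfkl (0.21) and Pdhb (0.19), and median-of-ratios scaling for Aldoa (-0.23). At the FDR alone, 23 to 26 members were lower and 4 to 7 higher over the 16 alternatives. The lower count was 23 with quantile normalization, 26 with median-of-ratios scaling and 24 to 25 with 1 library left out. The lost calls were of Pfkl, Pdhb, Tigar, Aldoa and Slc16a3, and Dlat gained one with median-of-ratios scaling (-0.11, adjusted p = 0.046). With a fold change of 1.5, 14 members were lower and 1 higher, and over all genes tested 2076 and 2574, against 995 and 1028. With a mean of at least 5 TPM, 683 genes were higher. The median of the members was -0.41, -0.48 with median-of-ratios scaling, -0.49 with the median of all genes taken off (added after seeing the data) and -0.46 to -0.39 with 1 library left out. The deviations of same-numbered libraries correlated by -0.035 to 0.15, so the numbers were not taken to pair them. With the replicate block, 5 members were lower and 0 higher past a fold change of 2, Pdhb lost its call (adjusted p = 0.054) and Slc2a1 gained one (adjusted p = 0.039). The absence of depth limits what can be said of members near 10 TPM, such as Pfkfb4 and Pdk1.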

Other observations

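Among the LPS + UDCA libraries, replicate 2 was the highest of its group in 24 of the 36 tested members and the lowest in 1, whereas replicate 4 was lowest in 17 and replicate 3 highest in 0. The median deviation of the members from their group mean was 0.072 in replicate 2 and -0.054 in replicate 4 on the log2 scale, where the same median over all genes tested was 0.017 and 0.0077. In the LPS libraries the medians of the members ran from -0.020 to 0.020.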
